A study of Mus musculus with 4 samples.

Results

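Mouse bone marrow cells of the MPP3 gate, a multipotent progenitor population that carries CD48 and lacks CD150 and CD135, were examined in 3 single-cell libraries that measured mRNA and 6 surface proteins in the same cells. Members were chosen by antibody counts and by 3 transcripts. A cell qualified when its centred log ratio (clr) was at most -0.28 for CD150, above 1.73 for CD48 and at most -0.94 for CD135. The clr is the natural log of 1 plus an antibody's count minus the mean of that value over the 6 antibodies. Cells in which Elane, Prtn3 and Ctsg, the serine proteases of neutrophil primary granules, gave 0.5% or more of the unique molecular identifiers (UMIs) were left out. The 4 libraries of the series held 22916 kept cell barcodes, those with 1000 or more genes and no more than 10% of UMIs from mitochondrial genes, and 6832 of them in 3 libraries met these rules. Of the 6832 members, 3149 came from the control library (43.3% of its 7274 kept barcodes), 1286 from the library labelled Mll3 deleted (21.1% of 6101) and 2397 from the library labelled Mll4 deleted (50.01% of 4793). These shares and the levels of Elane, Prtn3 and Ctsg follow from that choice and are descriptions only.

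All 3 libraries held donor cells (CD45.2 positive) that were lineage negative, Sca1 positive and Kit positive, taken from bone marrow 10 weeks after transplantation. Mll3 and Mll4 are the proteins of Kmt2c and Kmt2d, large histone H3 lysine 4 methyltransferases that act at enhancers. The series asks how their loss alters stem cell maintenance and the choice between myeloid and B-cell identity. Each genotype had 1 library. The number, age and strain of the mice, the deleted exons and the means of deletion are not given in the sources used here. The library with both genes deleted was not used in the comparisons.

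MPP3 cells arise from haematopoietic stem cells (HSCs) and give rise mainly to granulocytes and monocytes. Like the lymphoid-biased MPP4 cells they lie downstream of the stem cell and have short-lived repopulating activity. Mpo, the myeloperoxidase gene of primary granules, is an early mark of myeloid commitment, and granulocyte-monocyte progenitors further along make the granule proteases as well.

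The cut removed 80 control cells (2.48% of the gate), 86 Mll3-labelled cells (6.27%) and 968 Mll4-labelled cells (28.8%). Just inside it, between 0.4% and 0.5% of UMIs, lay 11, 8 and 79 cells with Mpo at 2178, 1575 and 5963 counts of UMIs scaled to the set total (CPM) in the control, Mll3-labelled and Mll4-labelled libraries. Just outside, up to 0.6%, lay 4, 3 and 56 cells with Mpo at 2706, 3139 and 6645 CPM. Mpo was thus higher just outside the cut than just inside it in each library. Within 0.1 clr of the CD48 threshold, Cd48 mRNA stood at 44.9, 54.0 and 58.6 CPM inside and at 41.9, 40.9 and 11.0 CPM outside, in the same order of libraries. Flt3, which encodes CD135, stood at 122, 125 and 73.9 CPM just inside the CD135 threshold and at 137, 152 and 63.5 CPM just outside. Slamf1, which encodes CD150, stood at 1.77, 11.6 and 13.1 CPM just inside the CD150 threshold and at 9.51, 16.9 and 23.4 CPM just outside.

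Members had medians of 17179, 17986.5 and 11996 UMIs and of 4213, 4404 and 3086 genes in the control, Mll3-labelled and Mll4-labelled libraries. No more than 2 member barcodes were shared by any pair of libraries. The targeted genes were read before the results. Kmt2c stood at 63.5 CPM (95% interval 61.5 to 65.6) in control members, 29.9 (27.8 to 32.1) in Mll3-labelled members and 75.4 (72.9 to 78.1) in Mll4-labelled members. Kmt2d stood at 23.7 (22.5 to 25.03), 19.5 (17.8 to 21.4) and 28.6 CPM (27.01 to 30.2). The Mll3 label was met by a lower Kmt2c level, whereas Kmt2d was not lower in the library labelled Mll4 deleted. The counted 3′ ends may lie outside the deleted part of either gene, so Kmt2d checks nothing about that label, and the libraries are named by their labels throughout. Intervals on levels are exact Poisson intervals, those on shares of cells are exact binomial intervals, and both cover counting error only.

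Many Mll4-labelled members carried the RNA of other blood cells. A member was marked when any of 6 lists of defining genes (mast cell, macrophage, T or innate lymphoid, B or plasma cell, late neutrophil, erythroid) gave at least 0.1% of its UMIs. Marked members made up 96 of 3149 control cells (3.05%), 237 of 1286 Mll3-labelled cells (18.4%, interval 16.3 to 20.7%) and 1631 of 2397 Mll4-labelled cells (68.0%, 66.1 to 69.9%). In the Mll4-labelled library the macrophage list (Fcgr4, C1qa, Ms4a7 and 5 others) marked 825 cells (34.4%) and the mast cell list (Cma1, Mcpt4, Tpsb2 and 3 others) marked 500 cells (20.9%). The mast list marked 1 cell in each of the other 2 libraries, and the macrophage list marked 7 control and 10 Mll3-labelled cells. B or plasma cell genes marked 131 Mll3-labelled members (10.2%), 381 Mll4-labelled members (15.9%) and 30 control members (0.953%). In the Mll4-labelled library 427 members were past 2 or more lists, against 2 in each of the others. The B or plasma list was the least sharp there, since 255 Mll4-labelled members lay between 0.08% and 0.12%. Marked shares differed between gates too. In the HSC gate they were 1.85%, 1.73% and 14.6%, and in the MPP4 gate 5.45%, 13.1% and 63.7%.

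**Figure D1:**
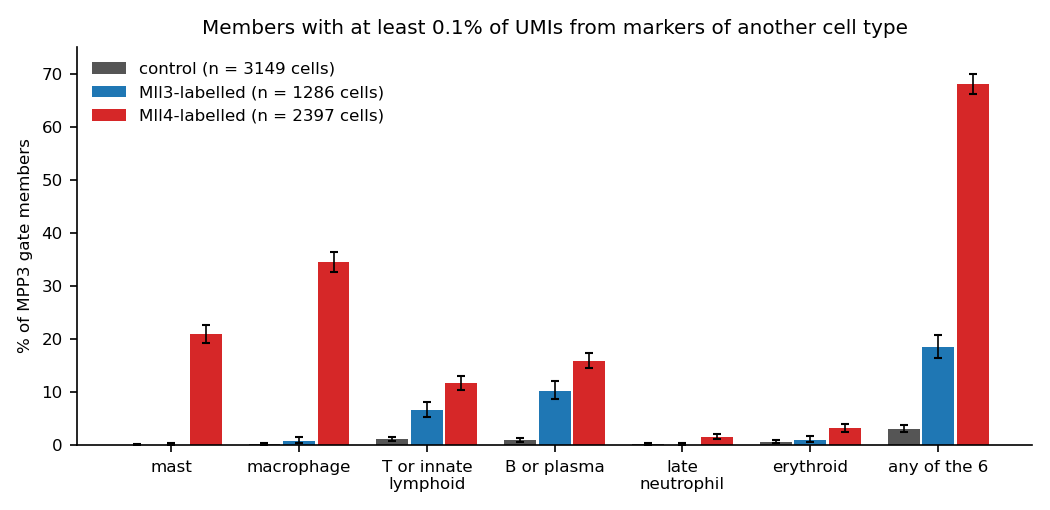
Percent of MPP3 gate members with at least 0.1% of their UMIs from each of 6 lists of other-cell-type genes, and from any of them, in the 3 libraries; bars are shares of cells and whiskers exact 95% binomial intervals. Any list was passed by 3.05% of control, 18.4% of Mll3-labelled and 68.0% of Mll4-labelled members.

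Counts of genes and of lists are therefore given for all members and, in most comparisons, again for the 4868 members that passed none of the lists: 3053 control, 1049 Mll3-labelled and 766 Mll4-labelled cells, called unmarked members. Values of single genes are for all members unless they are said to be for unmarked ones. Unmarked Mll4-labelled members had a median of 31748.5 UMIs, against 17285 in control and 17896 in Mll3-labelled unmarked members. Some other-type RNA remained in them. The mast and basophil list summed to 109, 93.7 and 3477 CPM in all control, Mll3-labelled and Mll4-labelled members and to 108.5, 92.0 and 368 CPM in unmarked ones. The monocyte and macrophage list summed to 333, 416 and 4882 CPM in all members and to 294, 399.5 and 921 CPM in unmarked ones. In control members Cma1, Mcpt4, Tpsb2 and Tpsab1, the mast cell proteases, were at 0 UMIs. A sum over cells cannot tell apart a change in the mix of cells from a change of RNA per cell.

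The population was first set against the HSC gate (CD150 high, CD48 low, CD135 low), with UMIs summed per library and gate and each library as a block. The antibody gates did not read RNA, so RNA differences were open to test over the 3 libraries, which differ in genotype. edgeR's quasi-likelihood test with Benjamini-Hochberg adjustment at 0.05 called 500 genes higher in the members (3.56% of 14027 tested) and 709 lower (5.05%). Among unmarked cells of both gates it called 2658 higher (19.9% of 13387) and 2391 lower (17.9%), and 1096 genes were called in both fits. Without the Mll4-labelled library the full members gave 2816 and 2369 calls, without the Mll3-labelled library 157 and 81, and without the control 742 and 488.

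Both markers of the label stood higher in the members than in the HSC gate. CD48 protein had set these gates apart, so the Cd48 difference follows in part from the choice of cells. Cd48, the gene of the gated protein CD48, stood at 148, 142 and 141 CPM in control, Mll3-labelled and Mll4-labelled members and at 7.93, 4.66 and 4.41 CPM in the HSC gate. The gates did not overlap, and the log2 difference was 4.78 (SE 0.21, adjusted p = 0.0082). Against the MPP4 gate, compared below, Cd48 did not pass in all cells or in unmarked ones. It passed there with no filter on low counts (log2 0.34) and without the Mll4-labelled library (log2 0.33). At 3000 UMIs per cell Cd48 had a UMI in 31.5%, 29.2% and 33.6% of members. The same held for 29.8%, 21.3% and 28.4% of MPP4 gate cells. Mpo stood at 125, 138 and 542 CPM in the members and at 4.28, 7.28 and 111 CPM in the HSC gate, so that the Mll4-labelled HSC gate almost reached the control members. The log2 difference in Mpo was 3.85 (SE 0.59, adjusted p = 0.035), and 3.96 (SE 0.39, adjusted p = 0.00077) in unmarked cells. Without the Mll3-labelled library Mpo had a log2 difference of 3.59 and did not pass. After each cell was thinned to 3000 UMIs, Mpo had a UMI in 19.2%, 19.8% and 48.4% of members and in 1.55%, 1.54% and 27.01% of HSC gate cells. Unthinned, the shares for Mpo were 46.5%, 46.8% and 88.4% of members and 5.36%, 6.36% and 91.7% of HSC gate cells, whose median depths were 11816, 14616 and 24723 UMIs. The source of Mpo RNA in the Mll4-labelled HSC gate, and its part in the level of Mll4-labelled members, were not tested.

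Stem cell genes fell from the HSC gate to the members. Of 16 HSC genes tested, 10 were lower and none higher in all members (median log2 -1.55, against 0.02 over all genes), and 14 were lower and 1 higher in unmarked cells (median -1.33, against 0.00). Slamf1, the gene of the gated CD150, stood at 1.94, 1.51 and 1.504 CPM in the members against 28.9, 26.95 and 36.5 CPM (log2 -4.12, SE 0.18, adjusted p = 0.0082). Mecom, a zinc finger factor needed for stem cell maintenance, stood at 67.1, 56.2 and 101 CPM against 147, 139 and 396 CPM, and every member level lay below every HSC gate level (log2 -1.38, SE 0.19, adjusted p = 0.029). Mllt3, a stem cell maintenance factor of the elongation machinery, stood at 28.5, 21.4 and 29.3 CPM against 131, 132 and 185 CPM (log2 -2.40, SE 0.12, adjusted p = 0.0083). Gata2 and Hlf, transcription factors of stem cells and early progenitors, did not pass in all cells (log2 -0.95, adjusted p = 0.079, and -0.75, adjusted p = 0.13). In unmarked cells both passed, Gata2 at log2 -1.17 (adjusted p = 6.2e-05) and Hlf at -0.54 (adjusted p = 0.017).

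Among the lowest genes outside the lists were Nupr1, a stress-response chromatin protein, at 10.5, 8.46 and 19.9 CPM in the members against 121, 116 and 149 CPM (log2 -3.30, SE 0.20, adjusted p = 0.011), and Aldh1a1, a retinaldehyde dehydrogenase, at log2 -3.06 (SE 0.38, adjusted p = 0.025). Mycn, a Myc family factor, stood at 15.0, 12.6 and 6.96 CPM against 68.5, 124 and 95.7 CPM (log2 -2.99, adjusted p = 0.022), and did not pass without the Mll3-labelled library (log2 -2.89). Bex4 was lower at log2 -2.48 (adjusted p = 0.016), and Socs2, a suppressor of cytokine signalling, at -2.74 in unmarked cells (adjusted p = 0.00027). Megakaryocyte and platelet genes were lower as a group. Of 10 tested, 8 were lower and none higher (median log2 -2.60), and all 10 were lower in unmarked cells (-2.73). Pf4, platelet factor 4, stood at 14.0, 6.66 and 14.9 CPM against 118, 44.5 and 80.5 CPM (log2 -2.66, SE 0.16, adjusted p = 0.011). Vwf, von Willebrand factor, stood at 1.36, 0.899 and 0.972 CPM against 18.2, 31.4 and 51.0 CPM (log2 -4.72, SE 0.45, adjusted p = 0.017).

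Genes of the primary granule list stood higher. This list is broader than granule proteins and also holds Plac8, Clec12a and the haem synthesis enzyme Alas1. Of its 16 genes, which leave out the 3 that set the cut, 11 were higher and none lower in all members (median log2 2.20). In unmarked cells 10 of 15 were higher and 1 lower (2.11). Nkg7, a cytotoxic granule membrane protein, stood at 242, 146 and 94.5 CPM against 54.6, 35.6 and 20.3 CPM, with no overlap between the gates (log2 2.22, SE 0.08, adjusted p = 0.0074). Plac8, found in many early myeloid cells, stood at 874, 927 and 600 CPM against 201, 141 and 102 CPM (log2 2.56, SE 0.16, adjusted p = 0.011). Ms4a3, a granulocyte-monocyte progenitor marker, stood at 11.2, 3.96 and 48.8 CPM against 2.07, 0.901 and 14.3 CPM, and members lay above the HSC gate of their own library, although the Mll4-labelled HSC gate lay above the control and Mll3-labelled members (log2 2.18, SE 0.17, adjusted p = 0.013). The serine protease Prss57 (1.76, adjusted p = 0.012), the cystatin Cst7 (3.80, adjusted p = 0.0083) and the inhibitory lectin Clec12a (4.18, adjusted p = 0.014) were higher too.

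Of 16 myeloid transcription factors, 4 were higher and 1 lower in all members (median log2 0.78). In unmarked cells 9 were higher and 3 lower (median 0.60). Cebpa, which drives granulocyte commitment, stood at 18.4, 25.3 and 25.2 CPM against 2.29, 4.24 and 2.15 CPM (log2 3.08, SE 0.22, adjusted p = 0.012). Irf8, which drives monocyte and dendritic cell commitment, stood at 17.9, 46.6 and 73.0 CPM against 3.44, 2.84 and 4.09 CPM (log2 3.62, SE 0.43, adjusted p = 0.023). Spi1, which encodes PU.1, stood at 132, 144 and 164 CPM against 89.4, 94.0 and 70.7 CPM, a smaller difference (log2 0.88, adjusted p = 0.045). Of 18 cytokine receptors, 5 were higher and 2 lower in all members (median log2 0.90), and 9 and 3 in unmarked cells (0.59). Over all genes tested, 3.56% were higher and 5.05% lower in all cells, and 19.9% and 17.9% in unmarked cells. The unmarked counts of lower genes in both lists lie near that last share. Csf3r, the G-CSF receptor, stood at 46.5, 35.2 and 31.6 CPM against 21.9, 19.6 and 8.50 CPM (log2 1.33, adjusted p = 0.042), and Il3ra, the IL-3 receptor alpha chain, differed by 1.20 (adjusted p = 0.041).

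Lymphoid priming genes were also above their HSC gate level. Of 16 tested, 10 were higher and none lower (median log2 3.79), and in unmarked cells 14 of 15 were higher and none lower (3.18). Dntt, terminal deoxynucleotidyl transferase of early lymphoid cells, stood at 72.7, 315 and 70.7 CPM against 1.81, 3.85 and 0.645 CPM (log2 6.14, SE 0.30, adjusted p = 0.0082), and at 69.3, 155 and 111 CPM in unmarked members (5.52, SE 0.18, adjusted p = 3.7e-05). Il7r, the interleukin-7 receptor, stood at 5.72, 28.8 and 126 CPM against 0.0882, 0.132 and 2.04 CPM (log2 6.67, SE 0.38, adjusted p = 0.011), and it also passed in unmarked cells. The T or innate lymphoid list marked 11.6% of Mll4-labelled members, and the part of these cells in the 126 CPM was not tested. Satb1, a chromatin organiser of lymphoid progenitors, stood at 48.6, 80.1 and 39.2 CPM in unmarked members against 3.89, 5.06 and 3.04 CPM (log2 3.88, SE 0.09, adjusted p = 1.6e-05). Flt3 stood at 70.8, 69.9 and 50.5 CPM against 9.87, 8.84 and 7.31 CPM (log2 2.97, SE 0.10, adjusted p = 0.0074), although the gate holds CD135 low. Tespa1, a T-cell signalling adaptor, stood at 111, 76.8 and 112 CPM in unmarked members against 7.12, 2.88 and 7.23 CPM (log2 4.32, SE 0.15, adjusted p = 3.8e-05). B lineage genes moved with these lists in all members (9 of 14 higher). In unmarked cells, which were chosen by low B-cell RNA, 1 of the 5 still tested was higher. Of the monocyte list, 6 of 16 were higher in all members and 8 of 14 in unmarked ones. Fcgr4, Ccr2, Clec4a1 and Ear2, monocyte and macrophage genes, were among the genes with the largest positive differences in all members, with Fcgr4 at 0.346, 1.84 and 344 CPM. The part of these other-type genes in the lymphoid and myeloid differences was not tested beyond leaving marked cells out.

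Cell division genes separated the gates once marked cells were out. Of 16 S phase and 16 G2M genes, edgeR called none in all members and all 32 higher in unmarked members (medians 0.43 and 0.70 on the log2 scale). Mki67, a marker of cycling cells, stood at 468, 513 and 502 CPM in unmarked members against 287, 348 and 348 CPM (log2 0.67, SE 0.05, adjusted p = 0.00032). In all members Mki67 did not pass (0.58, adjusted p = 0.10). At 3000 UMIs per cell, 51.4%, 58.0% and 61.4% of unmarked members had at least 2 UMIs of the G2M list. The same held for 22.8%, 32.2% and 35.6% of HSC gate cells, marked ones included. The unthinned shares of unmarked members were 74.7%, 80.7% and 87.7%. The share was 28.5% over all Mll4-labelled members, in which marked cells make up 68.0%.

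**Figure D2:**
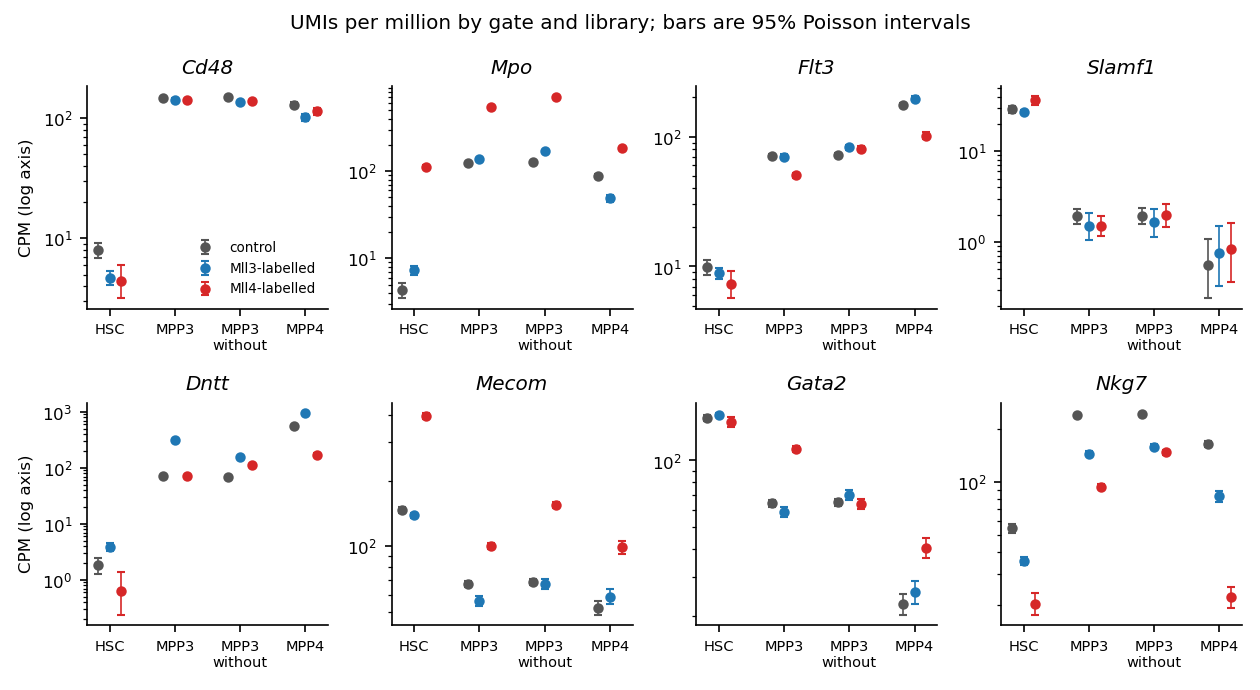
CPM (log axis) of 8 genes in the HSC gate, all MPP3 gate members, members without marked barcodes ("MPP3 without") and the MPP4 gate, one point per library with exact 95% Poisson intervals. Cd48 and Mpo lie above their HSC gate level in each library, Slamf1 lies below it, and Dntt and Flt3 are highest in the MPP4 gate. Cd48 did not pass edgeR's test against the MPP4 gate, in all cells or in unmarked ones.

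The second reference was the MPP4 gate (CD150 low, CD135 high), which also gives up granule-gene-high cells under the same cut. Here 215 genes were higher in the members (1.62% of 13269 tested) and 412 lower (3.1%). In unmarked cells 361 were higher (2.81% of 12853) and 677 lower (5.27%), and 518 genes were called in both. Leaving out the Mll4-labelled library gave 695 and 929 calls, leaving out the Mll3-labelled library 50 and 223, and leaving out the control 39 and 105.

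Lymphoid priming genes were lower in MPP3 members than in MPP4 cells: 9 of 16 were lower and none higher in all cells (median log2 -1.26, against 0.01 over all genes), and 14 of 16 in unmarked cells (-1.56). Flt3 stood at 175, 196 and 102 CPM in the MPP4 gate, where CD135 chose the cells (log2 -1.31, SE 0.07, adjusted p = 0.0051). Dntt stood at 566, 951 and 173 CPM in the MPP4 gate (log2 -1.98, SE 0.31, adjusted p = 0.029; unmarked -2.39, SE 0.28, adjusted p = 0.004), and without the Mll3-labelled library it did not pass (-2.20). Thinned to 3000 UMIs, Dntt had a UMI in 8.78%, 21.3% and 5.09% of members and in 42.8%, 48.4% and 10.7% of MPP4 cells. Dntt and Mpo were found in 1 cell in 1.94%, 1.80% and 2.11% of members, and in 5.59%, 5.21% and 4.65% of MPP4 cells. Ly6d, an early B-lymphoid surface marker, was lower in unmarked members by log2 -2.52 (SE 0.30, adjusted p = 0.0049). Rag1, the recombinase, stood at 0.415, 9.97 and 0.949 CPM against 4.44, 36.0 and 2.50 CPM (log2 -2.16, adjusted p = 0.029).

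Antigen presentation and dendritic genes were lower too. Of 13 tested, 11 were lower in all members and 12 in unmarked ones, with none higher (medians -1.17 and -1.50). Cd74, the invariant chain of MHC class II, stood at 97.2, 428 and 810 CPM in unmarked members against 417, 1017 and 3656 CPM in the MPP4 gate (log2 -1.84, SE 0.17, adjusted p = 0.0019). Irf8 was lower at log2 -1.45 (adjusted p = 0.019; unmarked -1.69, adjusted p = 0.001). Tcf4, a factor of plasmacytoid dendritic cells, stood at 132, 133 and 164 CPM against 207, 214 and 230 CPM, with no overlap (log2 -0.65, SE 0.05, adjusted p = 0.0093). Wfdc17, a secreted protein of myeloid cells, stood at 35.7, 20.9 and 45.8 CPM in unmarked members against 170, 88.1 and 144 CPM (log2 -1.995, SE 0.12, adjusted p = 0.00066). Plbd1, a lysosomal phospholipase of myeloid cells, was lower by log2 -2.02 in the same cells (adjusted p = 0.0012).

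Genes higher in MPP3 members were fewer. Gata2 stood at 64.0, 58.9 and 113 CPM against 22.6, 25.6 and 40.4 CPM (log2 1.36, SE 0.07, adjusted p = 0.0048). Sdsl, a serine dehydratase-like enzyme, stood at 86.5, 65.0 and 25.6 CPM against 28.9, 23.6 and 7.60 CPM (log2 1.55, SE 0.06, adjusted p = 0.0043). Muc13, a membrane mucin, differed by log2 1.08 (SE 0.11, adjusted p = 0.013), Vamp5, a vesicle membrane protein, by 0.86 (SE 0.06, adjusted p = 0.0085), and Selp, P-selectin, by 1.11 in unmarked cells (SE 0.09, adjusted p = 0.0014). Cpa3, carboxypeptidase A3 of mast cells and their precursors, stood at 19.0, 9.13 and 216 CPM in unmarked members against 1.39, 0.350 and 66.8 CPM (log2 2.33, SE 0.34, adjusted p = 0.0082). Mast cell protease transcripts also remained in the unmarked Mll4-labelled members, and their part in the Cpa3 value of that library was not tested.

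The primary granule list did not separate these gates as a group: 3 of its 16 genes were higher and 1 lower in all cells, and 4 of 15 higher and 1 lower in unmarked ones. Mpo stood at 87.2, 48.9 and 182 CPM in the MPP4 gate (log2 1.15, SE 0.20, adjusted p = 0.039; unmarked 1.42, SE 0.28, adjusted p = 0.026). Without the Mll3-labelled library Mpo differed by 0.99 and did not pass. Against an MPP4 gate that kept its granule-gene-high cells the difference in Mpo was -0.08, so its sign depends on that cut. Ms4a3 was higher (log2 1.22, SE 0.09, adjusted p = 0.0093), and Clec12a was lower in unmarked cells (-1.34, adjusted p = 0.012). The neutrophil secondary granule list was lower in all members (9 of 10), but in unmarked cells none of its 7 tested genes passed edgeR's test, with S100a9 at log2 -0.08 (adjusted p = 0.71) and Lcn2 at -0.07 (adjusted p = 0.95). Late neutrophil genes of that list, though not S100a9 or Lcn2, also marked cells. The part of that choice in the lost difference was not tested. Among G2M genes 4 of 16 were higher in all members and 7 in unmarked ones, none was lower.

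**Figure D3:**
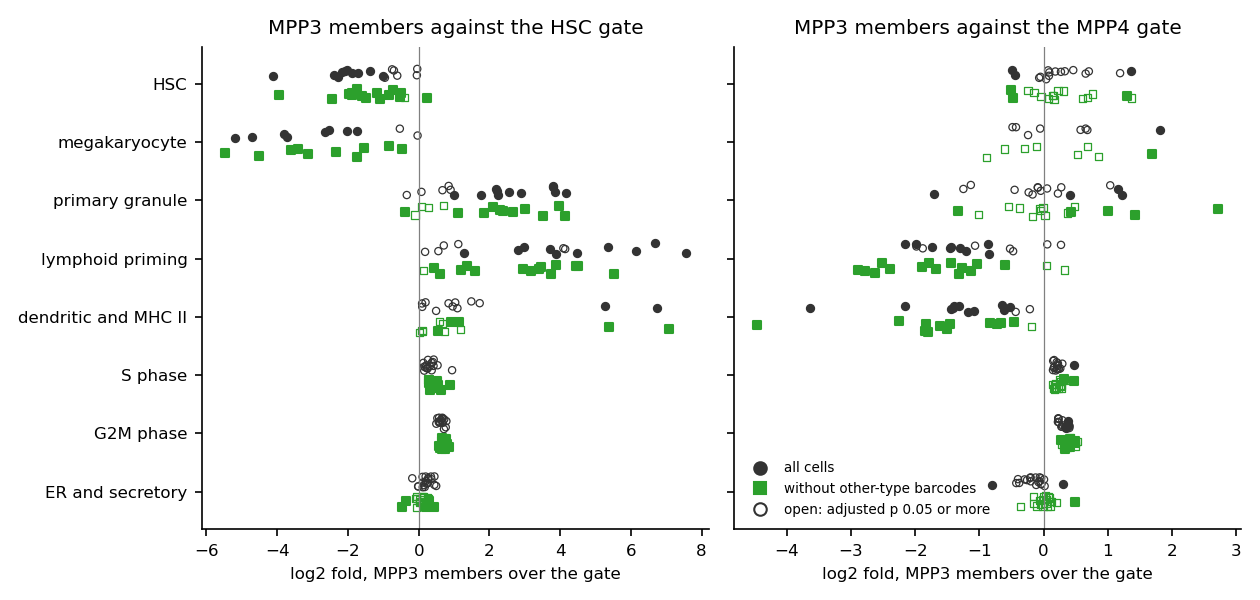
Log2 differences of single genes of 8 lists between MPP3 gate members and the HSC gate (left) or the MPP4 gate (right) for all cells (circles) and without marked barcodes (squares); filled symbols have an adjusted p under 0.05. Most HSC and megakaryocyte genes lie below 0 on the left, and most lymphoid priming and MHC class II genes below 0 on the right.

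Within the population, cells were split by CD34 protein, on which the gate sets no threshold although CD34 enters the centring of the clr. The upper and lower tertiles of each library were compared with the same test. Over all members, edgeR called no gene higher in the CD34-high tertile (0% of 12577 tested; 90 at an unadjusted p under 0.05; DESeq2 called 1) and 94 lower (0.747%). The lower genes were led by Igll1, Vpreb3, Cd3g and Car1, genes of pre-B, T and erythroid cells. In unmarked members 184 genes were higher (1.57% of 11744) and 235 lower (2%), and 29 genes were called in both fits. The rest of this comparison is on unmarked members, whose CD34-high tertiles also had more UMIs per cell (medians 18629.5, 19778 and 33316 against 15551.5, 15745 and 23959); the part of depth was not tested.

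Dendritic and MHC class II genes were lower in the CD34-high tertile, 8 of 12 tested (median log2 -3.13, against -0.0022 over all genes), and 1, Tcf4, was higher (log2 0.29, adjusted p = 0.034). Of 13 monocyte and macrophage genes tested, 5 were lower and none higher (median -1.87). The lowest genes by the naming rule, Plbd1, Fn1, Lgals3 and Mpeg1, belong to neither list. Plbd1 stood at 0.0507, 0.139 and 1.01 CPM in the CD34-high tertile and at 12.4, 62.8 and 152 CPM in the CD34-low tertile (log2 -7.57, SE 0.18, adjusted p = 1e-05). Cd74 stood at 18.2, 55.7 and 66.4 CPM against 251, 1278 and 2772 CPM (log2 -4.65, SE 0.29, adjusted p = 0.00092), and every CD34-low tertile lay above every CD34-high one. Lgals3, galectin-3 of macrophages, stood at 1.47, 2.22 and 3.71 CPM against 19.1, 67.8 and 161 CPM (log2 -4.85, SE 0.26, adjusted p = 0.00056). Fn1, fibronectin, and Mpeg1, a pore-forming protein of phagocytes, were lower by log2 -6.17 (adjusted p = 0.0013) and -4.69 (adjusted p = 0.0019). Irf8 stood at 11.7, 20.8 and 27.3 CPM against 28.9, 104 and 157 CPM (log2 -2.11, SE 0.22, adjusted p = 0.0053). Of the mast list 5 of 7 were lower, Cpa3 by -2.72 (adjusted p = 0.0015) and Gata2 by -0.77 (adjusted p = 0.011), and of the immediate early list 6 of 11 were lower, Fos by -1.03 (adjusted p = 0.0028).

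The CD34-high tertile carried more mitotic RNA. Of 16 G2M genes 14 were higher and none lower (median log2 0.46), while no S phase gene passed edgeR's test. A split by CD34's share of the antibody counts was run over all members only, so this result was not read with it. Cenpf, a kinetochore protein, stood at 244, 288 and 207 CPM against 150, 161 and 124 CPM, with no overlap (log2 0.71, SE 0.05, adjusted p = 0.0014). Kif11, the mitotic kinesin Eg5, differed by 0.64 (SE 0.06, adjusted p = 0.0047), Ect2, which drives cytokinesis, by 0.74 (SE 0.08, adjusted p = 0.0073), and Mki67 by 0.54 (SE 0.04, adjusted p = 0.0016). Cd34 mRNA itself stood at 473, 543 and 353 CPM against 377, 348 and 230 CPM (log2 0.47, SE 0.06, adjusted p = 0.012).

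Genotypes were then compared within the population. With 1 library per genotype no test was possible: differences between these libraries are given with counting intervals only, a gene is called when it lies past 2-fold, and the genes read had at least 20 CPM in the mean of both libraries. Mll3-labelled members had 44 genes past 2-fold higher than control (0.741% of 5941) and 22 lower (0.37%), with a median log2 ratio of 0.08 over all genes. Unmarked members had 23 higher (0.385% of 5971) and 9 lower (0.151%), with a median of 0.11. Mll4-labelled members had 481 higher (7.83% of 6142) and 169 lower (2.75%), with a median of -0.11. Unmarked, they had 167 higher (2.82% of 5923) and 25 lower (0.422%), with a median of -0.08.

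Tspan32, a tetraspanin of blood cells, was low in both labelled libraries. It stood at 160 CPM (157 to 164) in control members, 30.9 (28.7 to 33.1) in Mll3-labelled members and 19.9 (18.5 to 21.2) in Mll4-labelled members. Among unmarked members the Tspan32 levels were 162, 36.2 and 28.6 CPM, log2 ratios of -2.16 (-2.28 to -2.05) and -2.50 (-2.62 to -2.39). The order was the same in the other gates: Tspan32 stood at 184, 54.8 and 39.0 CPM in the HSC gate and at 138, 24.7 and 12.8 CPM in the MPP4 gate. At 3000 UMIs per cell, 38.7%, 10.2% and 8.50% of unmarked members had a Tspan32 UMI (unthinned 91.8%, 45.1% and 47.0%). The thinned shares were 40.1%, 15.6% and 12.6% of HSC gate cells, marked ones included. The top 1% of unmarked cells held 3.73%, 6.28% and 7.29% of Tspan32 UMIs, so the level was spread over many cells. The window from 250 bases before to 50 after the start of Tspan32 (RefSeq, GRCm38.p6, chr7:143004796-143005095, plus strand; the gene spans 143005046 to 143019644 in GENCODE) is shown because Tspan32 was among the lowest named genes of both labelled libraries. Capitals mark TGTGGT, the core of RUNX sites, at -70, its reverse complement ACCACA at -41 and GAGGAA, an ETS core, at -18 from the start.
Tspan32: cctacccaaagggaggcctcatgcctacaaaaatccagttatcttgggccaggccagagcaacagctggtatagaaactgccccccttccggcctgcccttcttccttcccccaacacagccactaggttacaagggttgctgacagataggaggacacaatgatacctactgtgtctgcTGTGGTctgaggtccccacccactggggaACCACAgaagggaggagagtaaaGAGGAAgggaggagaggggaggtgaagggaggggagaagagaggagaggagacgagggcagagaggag
Both strands were searched. TGTGGT lies in 16.8% and GAGGAA in 28.3% of all 32851 promoter windows of that length, so these matches are descriptions and not sites.

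The MHC class II genes Cd74, H2-Aa, H2-Eb1 and H2-Ab1 were higher in both labelled libraries, most in the Mll4-labelled one. Cd74 stood at 97.2, 428 and 810 CPM in unmarked control, Mll3-labelled and Mll4-labelled members (log2 ratios 2.14 and 3.06), and at 125, 497 and 2229 CPM in all members. H2-Aa, the class II alpha chain, stood at 51.0, 198 and 421 CPM in unmarked members (1.96 and 3.04), H2-Eb1, a beta chain, at 37.2, 161 and 387 CPM (2.11 and 3.38), and H2-Ab1, the other beta chain, at 104, 284 and 462 CPM (1.44 and 2.14). These were the 4 of 9 genes of the dendritic and MHC class II list past 2-fold in unmarked members of either library, with list medians of 0.69 and 0.50. In the HSC gate of all cells Cd74 stood at 128, 174 and 201 CPM and in the MPP4 gate at 510, 1017 and 4470 CPM. Cd74 RNA was concentrated in few cells in the control library and spread over more cells in the Mll4-labelled one. The top 1% of unmarked members held 80.2%, 42.6% and 20.4% of Cd74 UMIs, and at 3000 UMIs per cell Cd74 had a UMI in 5.94%, 11.8% and 23.1% of unmarked members (unthinned 18.05%, 26.8% and 70.5%) and in 21.4%, 28.2% and 33.3% of HSC gate cells. These HSC gate shares include its marked cells. The thinned share of unmarked members with Cd74 lay below that of the HSC gate in each library, although the summed level lay above it in both labelled libraries. Over all members the thinned Cd74 shares were 6.75%, 14.0% and 46.0%, so the Mll4-labelled members then lay above their HSC gate. H2-Aa in Mll3-labelled members differed by 1.69 over all members and by 0.95 with gate thresholds moved 0.25 inward. Irf8 moved with these genes, at 17.5, 44.7 and 65.0 CPM in unmarked members, as did the B lineage list in all Mll3-labelled members, described below.

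The windows of H2-Aa (chr17:34287774-34288073, minus strand) and H2-Eb1 (chr17:34305617-34305916, plus strand) are shown because both genes moved together; capitals mark CTGATTGG, the Y box of class II promoters, at -51 and -62 from the start.
H2-Aa: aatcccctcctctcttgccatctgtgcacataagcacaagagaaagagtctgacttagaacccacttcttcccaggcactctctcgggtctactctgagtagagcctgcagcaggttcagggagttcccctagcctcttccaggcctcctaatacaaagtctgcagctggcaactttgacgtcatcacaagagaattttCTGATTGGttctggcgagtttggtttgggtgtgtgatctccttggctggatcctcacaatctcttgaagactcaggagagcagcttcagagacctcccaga
H2-Eb1: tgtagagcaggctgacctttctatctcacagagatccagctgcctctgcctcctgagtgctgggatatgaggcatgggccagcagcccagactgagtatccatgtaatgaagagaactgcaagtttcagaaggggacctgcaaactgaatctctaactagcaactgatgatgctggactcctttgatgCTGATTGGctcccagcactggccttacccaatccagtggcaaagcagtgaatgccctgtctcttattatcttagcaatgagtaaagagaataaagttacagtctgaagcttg
CTGATTGG or its reverse complement lies in 4.10% of all promoter windows.

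**Figure D4:**
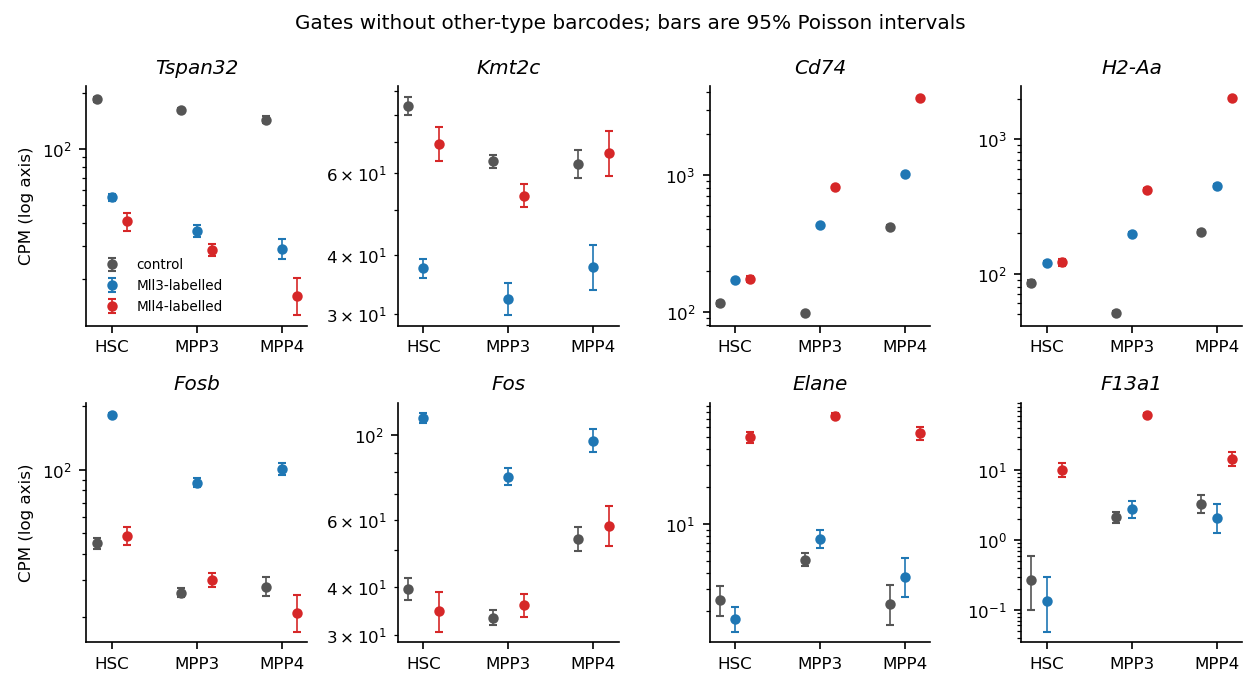
CPM of genes named in the genotype comparisons, by gate and library, without marked barcodes; points are libraries and bars exact 95% Poisson intervals. Tspan32 is lower in both labelled libraries in the HSC, MPP3 and MPP4 gates, with 162, 36.2 and 28.6 CPM in the MPP3 gate.

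In the Mll3-labelled library the named genes with the highest ratios over all members were Cd79a (202 against 7.50 CPM), Igll1 (84.0 against 3.30), Vpreb1 (195 against 8.81), Ebf1 (85.2 against 4.51), Vpreb3 (119 against 6.77), the T-cell receptor chain Cd3g (86.1 against 5.39), Bfsp2 (94.8 against 6.03) and Ly6d (110 against 13.01). Cd79a, Igll1 and Vpreb1 are parts of the pre-B cell receptor, Vpreb3 is a further gene of pre-B cells, and Ebf1 sets the B-cell programme. Of 14 B lineage genes 8 reached the minimum of 20 CPM, and 7 of these were past 2-fold higher (median 4.19), against 0.741% of all genes read. Cd79a, Igll1, Vpreb1, Ebf1 and Vpreb3 reached that minimum only through their Mll3-labelled level, so this count follows in part from it. The list summed to 169 CPM in control and 1010 CPM in Mll3-labelled members, and to 128.5 and 119.5 CPM in unmarked ones, where neither of the 2 genes tested was past 2-fold (median -0.08). Marked cells made up 18.4% of these members, and Cd79a, Vpreb1, Vpreb3 and Ebf1 are among the genes that marked them, so the low unmarked sums follow in part from that choice. Dntt stood at 315 against 72.7 CPM in all members (log2 2.11) and at 155 against 69.3 CPM in unmarked ones (1.16). At 3000 UMIs per cell Dntt was found in 10.3% of unmarked Mll3-labelled and 9.12% of unmarked control members, with intervals of 8.56 to 12.3% and 8.12 to 10.2% that overlap.

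Some immediate early genes, which answer fast to stimulation and to handling, were higher in Mll3-labelled members: 4 of 10 were past 2-fold in unmarked cells (Fosb, Fos, Egr1 and Zfp36) and none lower, with a list median of 0.95. Fosb stood at 86.9 against 26.2 CPM (log2 1.73), Fos at 78.0 against 33.3 (1.23) and Egr1 at 51.2 against 19.0 (1.43). The list summed to 726, 1241 and 576 CPM in unmarked control, Mll3-labelled and Mll4-labelled members. In the HSC gate it summed to 999, 1983 and 646 CPM, and Fosb there stood at 45.1, 181 and 47.97 CPM, so the difference was not confined to the members. The part of sample handling cannot be told apart from genotype with 1 library each. Iigp1, an interferon-inducible GTPase (74.7 against 21.99 CPM, log2 1.76), and Pttg1, securin (57.5 against 23.2, 1.31), were higher in unmarked members as well.

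Apart from Tspan32, low genes of unmarked Mll3-labelled members included Myl10, a myosin light chain (92.7 against 215 CPM, log2 -1.21), S100a11 (-1.04), Fyb, an adhesion adaptor (38.0 against 77.6, -1.03), Kmt2c (32.2 against 63.6, -0.98) and Ltb, lymphotoxin beta (39.0 against 76.8, -0.97). Over all members S100a9 (57.5 against 241 CPM, -2.07), S100a8 (49.2 against 186) and Camp (43.3 against 131), genes of late neutrophils, were low as well. These levels rest on few cells: the late neutrophil list marked 7 of 3149 control members and 1 Mll3-labelled member, and the top 1% of control members held 97.9% of S100a9 UMIs. Their list summed to 707 CPM in control members and 240 in Mll3-labelled ones, but to 17.7 and 17.8 CPM in unmarked members, in which none of its genes reached 20 CPM. Ifitm1, an interferon-induced membrane protein of stem cells, stood at 196 against 444 CPM over all members (log2 -1.18) and was at -0.97 in unmarked ones. Genes of the primary granule list were near control: none of 11 tested was past 2-fold in unmarked members (median 0.07), with Mpo at 169 against 128 CPM (0.40) and Nkg7 at 159 against 245 CPM (-0.62). Of the 16 G2M genes none was past 2-fold either, with a median of 0.43 and Cdk1, the mitotic kinase, at 216 against 150 CPM (0.53).

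In the Mll4-labelled library the highest ratios over all members belonged to mast cell and macrophage genes. Cma1, mast cell chymase, stood at 955 CPM against 0 UMIs in control members. It was at least 18424-fold higher if the control is taken as no more than 3 UMIs over the group, a chosen floor. Mcpt4 (486 CPM, at least 9368-fold) and Tpsb2 (235 CPM, at least 4533-fold, by the same floor) also had 0 control UMIs. Fcgr4 stood at 344 against 0.346 CPM (log2 9.92), Ms4a7 at 154 against 0.449 CPM (8.395) and Lyz1 at 146 against 0.0864 CPM. All 16 monocyte and macrophage genes tested, 8 of 9 mast and basophil genes and 9 of 9 secondary granule genes were past 2-fold higher. Over all genes read the share was 7.83%. Genes near 0 in control reach the 20 CPM minimum only where Mll4-labelled members are high, so these counts follow in part from it. Genes of these kinds were among those that marked cells, and marked cells make up 68.0% of the members here. The late neutrophil list, however, marked only 36 of 2397 members. Of 12 secondary granule genes only 3 were read in unmarked members, and these 3 were past 2-fold higher (median log2 3.82). Of 16 monocyte and macrophage genes 4 were read, all past 2-fold higher (2.81). Of 12 mast and basophil genes 2 were read, and 1 was past 2-fold higher. Over all genes read the share was 2.82%, and the same minimum shaped these counts. The secondary granule list summed to 9235 CPM in all Mll4-labelled members and to 186 CPM in unmarked ones.

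In unmarked Mll4-labelled members a few genes of the primary granule list stood above control, while the list as a whole summed to nearly the same level, 3218 against 3034 CPM. Mpo stood at 714 against 128 CPM (log2 2.48), Ms4a3 at 63.0 against 10.5 CPM (2.59) and Clec12a at 68.6 against 17.7 CPM (1.95). With Alas1, the haem synthesis enzyme, these were the 4 of 12 tested genes of that list past 2-fold. None was lower past 2-fold, the list median was -0.13, and Nkg7 stood at 148 against 245 CPM (-0.73). Mpo had a UMI in 44.8% of these cells at 3000 UMIs (95.2% unthinned) and in 19.2% of control members (47.3%). Mpo in the HSC gate, in 27.01% of cells and at 111 against 4.28 CPM, was high in this library as well, so that free RNA from its many granule-gene-high cells and Mpo made by the members cannot be told apart by these sums. Fn1 (55.8 against 0.354 CPM, log2 7.26), F13a1, coagulation factor XIII (61.6 against 2.13, 4.85), Mpeg1 (59.4 against 3.61, 4.04) and Ccr2, the monocyte chemokine receptor (70.0 against 4.66, 3.91), led the unmarked ratios. Fn1 had a UMI in 6.92% of unmarked Mll4-labelled members and the top 1% of cells held 75.1% of it, whereas F13a1 had a UMI in 26.6%. S100a8 (63.3 against 4.48 CPM, 3.82), Slpi, a protease inhibitor (78.9 against 6.33, 3.64), and the noncoding Snhg9 (72.0 against 5.01, 3.84) followed. Elane, at 74.4 against 5.16 CPM, is held down by the cut in every library and is a description. The monocyte and macrophage list summed to 921 CPM in unmarked Mll4-labelled members and 294 CPM in unmarked control ones, and its part in these ratios was not tested.

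Other regulators also stood apart in unmarked Mll4-labelled members. Id2, an inhibitor of E proteins, stood at 54.5 against 7.78 CPM (log2 2.81), Irf8 at 65.0 against 17.5 (1.89) and Mecom at 155 against 68.3 (1.18). Mecom was high in the HSC gate of this library too, at 396 against 147 CPM. Kit, the stem cell factor receptor, stood at 534 against 199 CPM over all members but at 268 against 201 CPM (0.41) in unmarked ones, and in members marked by the mast list Kit reached 3023 CPM. Lymphoid priming genes had 4 of 10 past 2-fold (Il12a, Cd52 and Ighm among them; median 0.56). Ighm is also on the immunoglobulin and plasma cell list, which summed to 336 against 69.4 CPM in the same cells with both genes tested, Igkc and Ighm, past 2-fold (median 2.36). The part of plasma cell RNA in the lymphoid count was not tested.

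The lowest named gene in Mll4-labelled members was Tpm3-rs7, at 4.51 against 105 CPM (log2 -4.53; unmarked 5.21 against 106, -4.34). Its Mll3-labelled level was 241 CPM, and in the HSC gate of the 3 libraries it stood at 101, 235 and 3.66 CPM. Tpm3-rs7 is a close copy of Tpm3, so its counts may hold reads of Tpm3 and are uncertain. Hist1h2ac (-1.37 in unmarked members), Wdfy1, an endosomal adaptor (25.3 against 60.8 CPM, -1.27), Klk8, a secreted protease (29.7 against 70.4, -1.24), Ltb (33.6 against 76.8, -1.19) and Sdsl (38.4 against 87.4, -1.19) were also low. Over all members Sdsl was at -1.75, Myl10 at -1.52 (74.6 against 214 CPM), Zfpm1, the GATA cofactor FOG1, at -1.52 (23.7 against 68.0), Bex6 at -1.46 and Cdkn2d, a CDK4 and CDK6 inhibitor, at -1.46. Myl10 was below control in both labelled libraries among all and unmarked members. No S phase or G2M gene was past 2-fold in unmarked members (medians 0.01 and 0.19), and no immediate early gene (median -0.03).

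**Figure D5:**
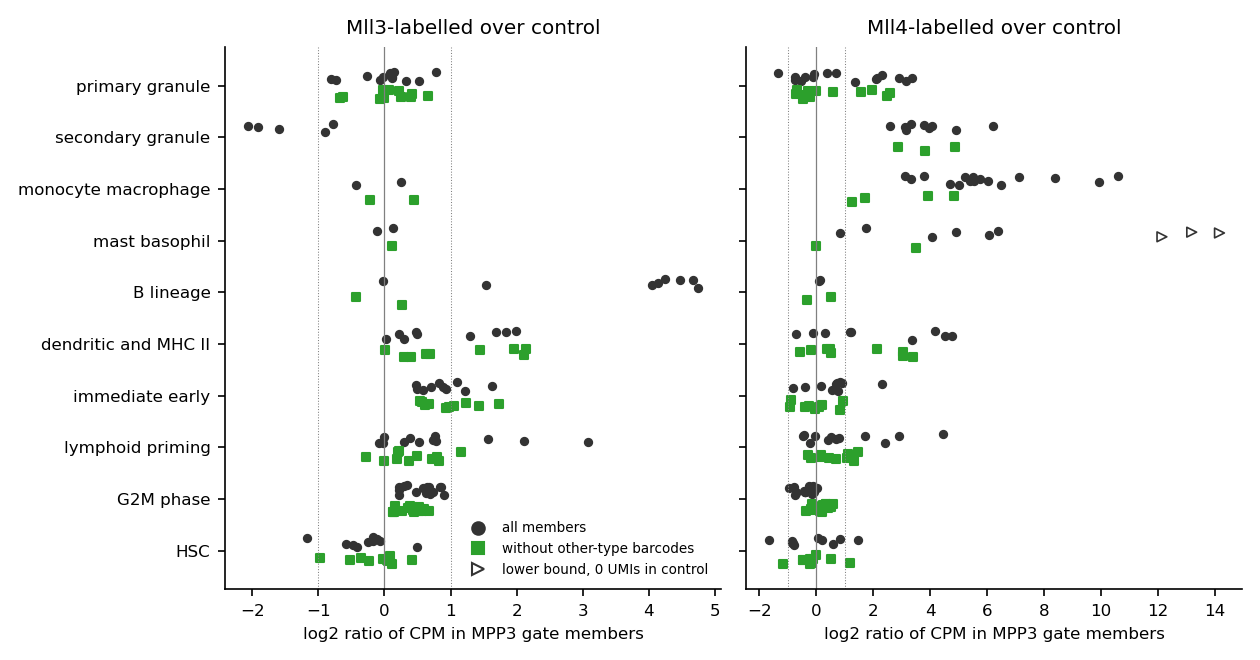
Log2 ratios of single genes of 10 lists in Mll3-labelled (left) and Mll4-labelled (right) members over control, for all members (circles) and unmarked members (squares); dotted lines mark 2-fold, and open triangles are lower bounds for genes with 0 control UMIs. Only genes with at least 20 CPM in the mean of both libraries are drawn. Of these, most B lineage genes stand high on the left and most macrophage and mast genes on the right in all members. The 4 MHC class II genes past 2-fold stay past it in unmarked members.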

How the data were processed

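Each library was made with droplet 3′ chemistry (10x Genomics, version 3.1) and barcoded antibodies, per the labels. The deposited values are raw counts of UMIs and antibody tags per barcode, which the authors obtained with Cell Ranger 6.1.1 on mm10, per the submitters' processing notes. Kept barcodes held 119328763, 105907176 and 120700343 UMIs in the control, Mll3-labelled and Mll4-labelled libraries. UMIs were summed per library and set and divided by the set's total (CPM). Gate and CD34 contrasts used edgeR 4.0.16 (TMM, filterByExpr, library as block), adjusted over all genes, in R 4.3.3. Genotype ratios had 0.5 UMI added before log2 and have exact intervals. Ratios and contrasts were tested on simulated counts. Same-library gates come from 1 sample, which is what pairs them. It is not stated whether libraries came from separate mice, and p-values measure only the spread between these 3. Doublets were not removed: Scrublet called 3, 3 and 171 kept barcodes, and leaving out its highest scores was an alternative.

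The members, the 24 gene lists and the tests were chosen with earlier results of these data known. Genes named in the text were list members, or the 8 highest and lowest genotype ratios at 50 CPM or more, the 6 highest and lowest gate differences, and 4 for CD34, leaving out mitochondrial, ribosomal, receptor-segment, sex-linked and unnamed genes. A few genes that this rule names are not reported here. Coordinates of genes are from GENCODE mouse release 21, in which 32235 of 32285 identifiers were found. Promoter windows matched the 3 genes shown, while H2-Ab1 was not printed.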

Additional observations from a re-analysis of the deposited data

Results flagged for a closer look

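The library with both Mll3 and Mll4 deleted was not part of the comparisons, and 497 of its cells met the same rules. In them the B lineage list summed to 13840.5 CPM, against 168.6 CPM in control members. Of these cells, 98.6% were marked by a list of other cell types, against 3.05% in control.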

How the results depend on the processing

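The share of kept barcodes that were members, 43.3% in control, was 31.5% and 53.3% with the gate thresholds moved 0.25 inward and outward, 46.3% with at most 5% mitochondrial UMIs and 42.0% without marked barcodes. For Mll3-labelled cells, 21.1% became 13.9%, 27.5%, 23.6% and 17.2% in the same order, and 19.3% when the B and plasma list was not used for marking. For Mll4-labelled cells, 50.01% became 34.8% inward, 58.1% outward, 45.2% and 56.1% with granule cuts of 0.25% and 1%, 47.2% with 2000 genes, 16.0% without marked barcodes and 18.4% without that list.

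Genes past 2-fold higher in Mll3-labelled members, 44, were 132 at a minimum of 5 CPM, 13 at 100 CPM and 23 without marked barcodes. Lower ones, 22, were 82, 6 and 9, and 43 when totals left out mitochondrial and ribosomal genes. In Mll4-labelled members 481 higher became 995, 116 and 167, 822 with equal weight per cell and 169 without the B and plasma list. Lower ones, 169, became 309, 43 and 25, then 610 with equal weight, 38 without that list and 348 with the changed totals. Scaling moved the median log2 ratio of all genes from 0.08 to -0.04 and from -0.11 to -0.19 at most; no result changed direction with it.

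Against the HSC gate, 500 higher and 709 lower genes became 62 and 118 with no replicate block, 157 to 2816 and 81 to 2369 with 1 library left out, and 2658 and 2391 without marked barcodes. Higher genes were 1091 by DESeq2 and 781 with no filter on low counts. Against the MPP4 gate, 215 and 412 became 584 and 682 with no filter, 39 to 695 and 105 to 929 with 1 library left out, 361 and 677 without marked barcodes, and 143 higher with no granule cut on the MPP4 gate. With no replicate block edgeR called 0 and 0, with 91 and 230 at an unadjusted p under 0.05. Between CD34 tertiles, 0 higher and 94 lower became 1 and 447 by DESeq2, 2 and 275 with no filter, 0 to 48 and 161 to 601 with 1 library left out (48 and 601 without the control), and 184 and 235 without marked barcodes; with no block edgeR called 0 lower, with 485 at an unadjusted p under 0.05.

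Direction turned for the Mll3-labelled T and innate lymphoid list median at 5 CPM (-0.21), the Mll3-labelled B lineage median without marked barcodes (-0.085), the Mll4-labelled erythroid median without marked barcodes (-0.59, and -0.70 without the B and plasma list) and Mpo against an uncut MPP4 gate (-0.082). The cause was not tested. The alternative without the B and plasma list was chosen after seeing the data.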
